A study of Canis lupus familiaris with 10 samples.

Results

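The genes described here differed from the starting culture of MDCK cells, which derive from the kidney epithelium of a dog, after calcium had been removed for 18 h and returned for 2 h. They were taken from 4 of the 10 arrays of the series, the arrays titled Mock 0h, Mock S18D2, BLT2 0h and BLT2 S18D2, as S18D2 minus 0h within each line. A gene counted as still displaced in both lines when the additive fit called the change and the line's own difference was at least 1 log2 unit, a 2-fold change, in the same direction in each line. Of 10498 tested genes 118 met this, 57 higher and 61 lower than at 0h. The Mock line, Mock-MDCK, was the control, and the BLT2 line overexpressed human BLT2, the cell surface receptor for the lipid 12-HHT. At 0h both lines were confluent in DMEM with 10% FCS. S18D2 stands for 18 h in SMEM, a calcium-free medium, and then 2 h in DMEM without 12-HHT. Both lines went through every step. Each line and step had 1 array, hybridised with RNA mixed from 3 preparations. How the lines were made, whether a line was 1 clone and the serum in the medium of S18D2 are not stated in the labels. Calcium, the change of medium and the hours in culture all differed between 0h and S18D2 and cannot be told apart.

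Cadherins need calcium outside the cell to hold neighbouring cells together, and a kidney epithelium that loses calcium opens its junctions within hours and closes them again when calcium comes back. Cells in a sealed sheet divide little, and those that leave the cycle stop making the histones and enzymes that copy DNA. The proteins of junctions, matrix contacts and stress responses have their own transcriptional control, so the transcript levels of these classes can return to the start at different rates.

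After 2 h of calcium return 814 genes were called higher than at 0h (7.75% of those tested) and 765 lower (7.29%), at a Benjamini-Hochberg adjusted limma p under 0.05. The 57 genes that were also 2-fold higher in each line were 0.543% of those tested and the 61 lower ones 0.581%. An unadjusted p under 0.05 was reached by 3277 genes. Values are log2 signals, and a change given with ± carries the standard error of the additive fit of line and step. For 117 of the 118 genes both return arrays lay beyond both 0h arrays, and CLDN16 was the exception. The rule itself favours this, since it selects on the same arrays, and the share over all tested genes was not counted. The separation is therefore no further evidence. Just inside the 2-fold limit lay ZFP36, FAM185A and RRM2, whose smaller line change was 1.00, 1.01 and 1.01 in size, and just outside it CCDC28A, ADD2 and CHAC2, at 0.999, 0.997 and 0.996. The array of BLT2 0h carried much weight: without it 40 genes were called, against 404 without Mock 0h, 487 without Mock S18D2, 615 without BLT2 S18D2 and 1031 without either array of 18 h in SMEM. Of the 118 genes 34 were called without each array in turn. To be tested, a gene had to exceed the table median of 7.21 on 2 arrays. Of the 57 higher genes 12 were below it on both 0h arrays, and of the 61 lower genes 8 on both return arrays, so these 20 passed through arrays where they were high. The size of their changes runs into the low range of signal. DDR2 was among the 12, and RAD54B, CEP57L1 and MEST were among the 8.

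**Figure D1:**
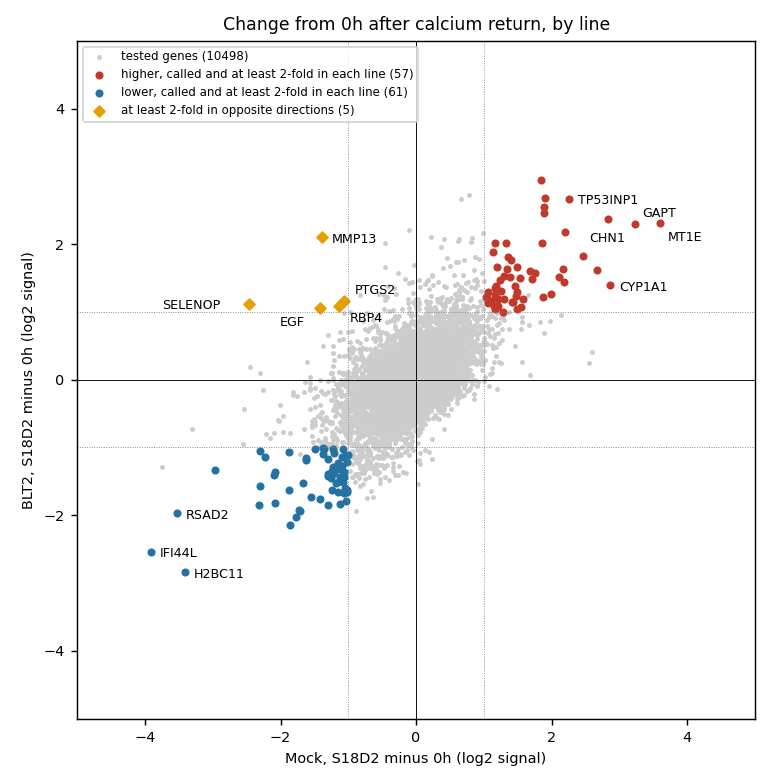
Each point is a tested gene, placed by its S18D2 minus 0h difference in log2 signal in the Mock line (horizontal axis) and in the BLT2 line (vertical axis). Red and blue points are the 57 higher and 61 lower genes that were called and at least 2-fold in each line, orange diamonds the 5 genes at least 2-fold in opposite directions, and dotted lines mark 1 log2 unit.

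The epithelial label held on these arrays: of 9 epithelial markers measured, 8 were above the table median of 7.21 on all 4 arrays, among them EPCAM, CDH1 and the keratins KRT8, KRT18 and KRT19, and CDH16 was below it. Below the median on all 4 arrays were 8 of 10 fibroblast, 6 of 10 endothelial and 7 of 9 leukocyte markers. Above it on all 4 arrays were 2 fibroblast markers, 2 endothelial markers and 1 leukocyte marker. The highest endothelial marker averaged 11.49 over the 0h arrays, against 12.68 for the highest epithelial marker. The summed log2 signal of the fibroblast markers was 62.5 to 62.9 at 0h and 62.7 to 65.2 after return, that of the endothelial markers 69.95 and 70.001 against 69.4 to 72.0, and that of the leukocyte markers 53.3 to 53.8 against 54.2 to 54.5. None of the 8 tested genes of these 3 lists was called, by limma under any of the fits that left out 1 array, and their part in the results below was not tested. Array medians ran from 7.16 to 7.27. In a bulk RNA sample fewer cells of a kind and less RNA per cell cannot be told apart.

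Histone genes had the lowest median of the 39 lists. They encode the proteins that package newly copied DNA and are transcribed mainly while DNA is being copied. Of 13 tested genes in a list of replication-dependent histones 12 were called lower and none higher, with a median of -1.36 against 0.03 for all tested genes, and 10 were 2-fold lower in each line. H2BC11, a histone H2B gene, read 10.01 in Mock and 9.14 in BLT2 at 0h and 6.60 and 6.30 after return, a change of -3.13 ± 0.27 (adjusted p = 0.00268), or 8.73-fold lower. The linker histone gene H1-1 read 10.59 and 10.29 at 0h and 8.73 and 8.14 after return (-2.01 ± 0.10, adjusted p = 0.000626). The histone H2A gene H2AC6 went from 12.13 and 11.71 to 10.36 and 9.69 (-1.90 ± 0.11, adjusted p = 0.000626). In all of these the return arrays of both lines were below the 0h arrays of both, which the 2-fold rule favours. The other members fell by 1.25 to 1.75, namely H1-2, H2BC1, H2BC18, H2AC13, H1-4, H2AC21 and H3C13. After 18 h in SMEM, before calcium came back, H1-1 was at -2.06 in Mock and -2.16 in BLT2 from 0h, and its step from 18 h to return was 0.10 and not called (adjusted p = 0.622). H2BC1 was at -0.77 and -0.98 at 18 h and fell by 0.77 on return (adjusted p = 0.0143). It read 6.73 in Mock and 6.57 in BLT2 at 18 h and 5.95 and 5.82 after return, all below the table median. This step thus lay wholly in the low range of signal, and H2BC1 too passed the filter through arrays where it was high. Histone genes are alike in sequence, so a probe set may take up RNA of a relative. The list kept 8 called genes without the BLT2 0h array and 12 without each of the arrays Mock 0h, Mock S18D2 and BLT2 S18D2. Of the 10 called genes named here, 8 stayed called without BLT2 0h, 10 without Mock 0h, 10 without Mock S18D2, 10 without BLT2 S18D2 and all without any 1 of the other arrays (limma adjusted p up to 0.0763).

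Genes for copying DNA were lower as well. Of 43 tested genes of the replication machinery 23 were called lower and none higher, with a median of -0.77, which was -0.48 in Mock and -1.09 in BLT2. The difference between the lines was not tested. ORC1, the largest subunit of the complex that marks replication origins, changed by -1.23 ± 0.24 (adjusted p = 0.0185), and GINS4, a part of the replicative helicase, by -1.19 ± 0.13 (adjusted p = 0.00527). GINS4 read 10.82 in both lines at 0h and 9.87 in Mock and 9.39 in BLT2 after return. RRM2, which makes the deoxynucleotides for DNA, was the member of this list that was 2-fold lower in each line, from 12.06 and 12.14 to 11.05 and 11.02 (-1.06 ± 0.12). Sorted by role after their values were seen, 12 other members act in repair or chromatin, and 10 of them were lower, at -1.12 to -1.60. The lower ones were SLF1, GEN1, which cuts recombination junctions, FANCM and BRIP1 of the Fanconi pathway, HELLS and CDCA7, which open chromatin for DNA methylation, RAD54L and RAD54B of homologous recombination, PARP1, which senses DNA breaks, and the nuclease-helicase DNA2. The other members of this class rose, the DNA exonuclease gene EXO5 by 1.81 ± 0.27 and PARP3, a relative of PARP1, by 1.12 ± 0.09. PARP1 read 9.76 and 9.55 at 0h and 8.39 and 8.46 after return (-1.23 ± 0.16, adjusted p = 0.00583). At 18 h in SMEM its differences from 0h were -1.36 and -1.39, and the step on return was 0.14 (adjusted p = 0.650). Without the BLT2 0h array 1 gene of the replication list was called, against 22 without Mock 0h, 19 without Mock S18D2 and 12 without BLT2 S18D2. Among these 15 called genes, 3 stayed called without BLT2 0h, 14 without Mock 0h, 14 without Mock S18D2, 13 without BLT2 S18D2 and all without any 1 of the other arrays (limma adjusted p up to 0.117).

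Genes of mitosis were lower too, and some of them moved once calcium was back. The list had 18 of 35 tested genes called lower and none higher, with a median of -0.61, and the members named by size were KIF4A (-1.15 ± 0.17), CDK1, the kinase that drives mitosis (-1.14 ± 0.16), HMMR (-1.04 ± 0.16), CDC25C (-1.02 ± 0.10) and the checkpoint kinase TTK (-1.004 ± 0.25). Outside the list, 9 genes of spindle, centrosome and mitotic control were 2-fold lower in each line: CENPI, FBXO5, PLK4, KIF18A, SHCBP1, DEPDC1, STIL, CEP89 and CEP57L1, at -1.12 to -1.44. FBXO5, an inhibitor of the ubiquitin ligase that ends mitosis, read 10.74 and 10.72 at 0h and 9.67 and 9.06 after return (-1.37 ± 0.16, adjusted p = 0.00569). At 18 h in SMEM it had been 0.39 and 0.07 above the start, so its step on return was -1.59 (adjusted p = 0.011). The mitotic gene DEPDC1 read 9.42 in Mock and 9.04 in BLT2 at 18 h, against 9.42 and 9.32 at 0h, and moved by -1.07 on return (adjusted p = 0.0146), and the kinesin KIF18A moved by -0.84 (adjusted p = 0.0201). SHCBP1, which acts late in cell division, was at -1.22 and -1.34 from 0h at 18 h, with a step of -0.02 on return (adjusted p = 0.954). In the whole fit 81 genes were higher after return than at 18 h (0.772%) and 270 were lower (2.57%), and this step shares the S18D2 arrays with the change from 0h. Among the genes of G1 and cell cycle entry 5 of 21 were called lower, CDC25A (-1.05 ± 0.18), E2F8, RBL1, CDK2 and CCNE1, and RB1, which holds cells before DNA synthesis, was higher (0.74 ± 0.11, adjusted p = 0.00767). The mitosis count was 0 without BLT2 0h, 13 without Mock 0h, 12 without Mock S18D2 and 7 without BLT2 S18D2, and the G1 count of lower genes was 0 without BLT2 0h or BLT2 S18D2, 1 without Mock S18D2 and 2 without either array of 18 h. Of the 20 called genes named here, 1 stayed called without BLT2 0h, 15 without Mock 0h, 13 without Mock S18D2, 13 without BLT2 S18D2 and at least 16 without any 1 of the other arrays (limma adjusted p up to 0.302).

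Growth arrest genes were higher than at the start. Of 24 tested p53 targets 11 were called higher and none lower, with a median of 0.39, and 4 were 2-fold higher in each line. CDKN1A, which encodes the inhibitor p21 of the cell cycle kinases, read 10.07 in Mock and 10.54 in BLT2 at 0h and 12.74 and 12.16 after return, a rise of 2.14 ± 0.37 (adjusted p = 0.0124). TP53INP1, a stress-induced partner of p53, rose from 7.36 and 6.99 to 9.63 and 9.66 (2.47 ± 0.32, adjusted p = 0.00583), or 5.53-fold. The RNA-binding protein gene ZMAT3 rose by 1.35 ± 0.17 and BTG2, an antiproliferative factor, by 1.26 ± 0.16. Their steps on return were not called, at -0.14 for CDKN1A (adjusted p = 0.857) and -0.11 for TP53INP1 (adjusted p = 0.872). The cell death genes PMAIP1 and BAX and the p53 ligase MDM2 were also among the 11. Without the BLT2 0h array 1 of these 11 was called, against 5 without Mock 0h, 3 without Mock S18D2, 6 without BLT2 S18D2 and 7 without either array of 18 h. Among these 7 called genes, 1 stayed called without BLT2 0h, 5 without Mock 0h, 3 without Mock S18D2, 5 without BLT2 S18D2 and at least 6 without any 1 of the other arrays (limma adjusted p up to 0.195).

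**Figure D2:**
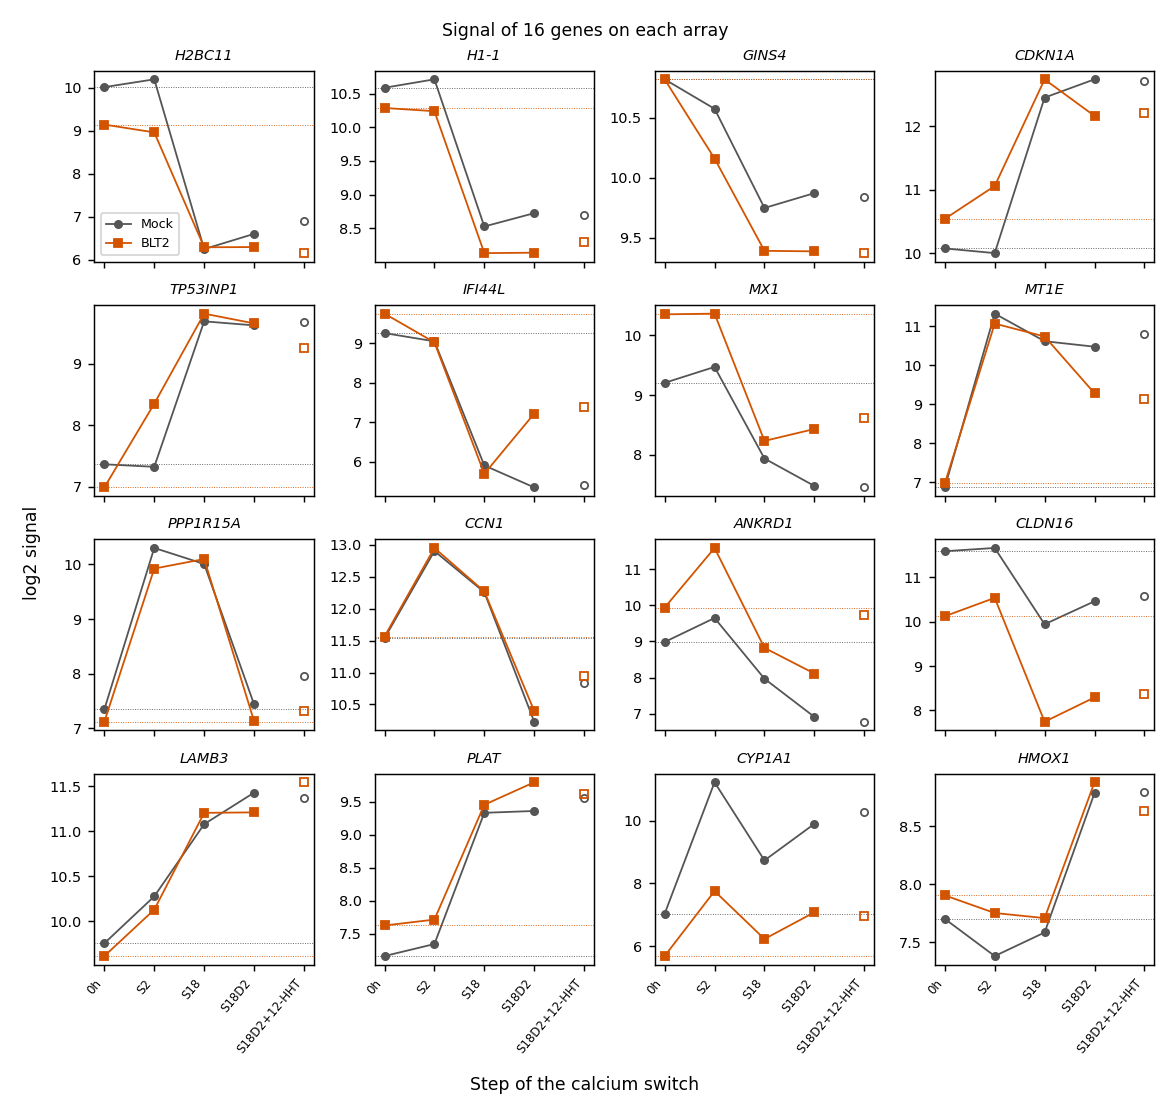
Log2 signal of the named genes on all 10 arrays, in order of the steps, for the Mock line (grey circles) and the BLT2 line (orange squares), with open symbols for calcium return with 12-HHT and dotted lines at each line's 0h value. H2BC11, H1-1, GINS4, IFI44L and MX1 stayed below their 0h lines after return, CDKN1A, TP53INP1, LAMB3 and PLAT stayed above them, PPP1R15A lay near them, and CCN1 crossed from above to below.

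Some interferon response genes were lower as well. After their values were seen, 7 of the 118 genes were sorted into this class, all of them lower. The GTPase gene GBP6 and the MHC class II genes DLA-DQA1 and DLA-DMA, which rose, were sorted into other classes. Interferon response genes encode antiviral proteins and are switched on by interferon through the STAT factors. IFI44L had the most negative fitted change of all tested genes, -3.23 ± 0.55 (adjusted p = 0.0121), from 9.26 in Mock and 9.76 in BLT2 to 5.35 and 7.22. RSAD2, the antiviral enzyme viperin, went from 10.78 and 12.01 to 7.25 and 10.04 (-2.75 ± 0.56, adjusted p = 0.02). MX1, a GTPase that blocks virus growth, went from 9.21 and 10.35 to 7.48 and 8.43 (-1.82 ± 0.20, adjusted p = 0.00508). The Mock return array was the lowest of the 4 for each of these genes. The fitted change was -2.15 ± 0.52 for USP18, which dampens interferon signalling, -2.08 ± 0.34 for the chaperone gene RTP4, -1.34 ± 0.15 for MX2 and -1.19 ± 0.21 for OAS1, a sensor of viral RNA. In BLT2 the difference of IFI44L from 0h was -4.06 at 18 h and -2.54 after return, while in Mock it was -3.36 and -3.92, and the fitted step on return was not called (0.49, adjusted p = 0.661). The list of 30 tested genes had 9 lower and 1 higher, the nuclease gene ISG20, with a median of -0.28, so most of its members were not called. The count of 9 was 0 without BLT2 0h, 3 without Mock 0h, 3 without Mock S18D2 and 8 without BLT2 S18D2. Of the 8 called genes named here, 0 stayed called without BLT2 0h, 2 without Mock 0h, 3 without Mock S18D2, 8 without BLT2 S18D2 and all without any 1 of the other arrays (limma adjusted p up to 0.193).

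Several genes of inflammation and NF-kB signalling were higher. After their values were seen, 7 of the 118 genes were sorted into this class, all 2-fold higher in each line. Of these, CYLD, ZFP36 and GBP6 were not members of the gene list counted below. SAA1, an acute phase protein, read 6.52 in Mock and 6.92 in BLT2 at 0h, below the table median, and 8.41 and 9.47 after return (2.22 ± 0.40, adjusted p = 0.0142). BIRC3, a ubiquitin ligase of TNF signalling, read 7.63 and 8.57 at 0h and 10.10 and 10.39 after return (2.14 ± 0.23, adjusted p = 0.00451). The deubiquitinase gene CYLD, a feedback regulator of the pathway, rose by 1.41 ± 0.11 (adjusted p = 0.00249). ZFP36, which destabilises cytokine mRNA, rose by 1.14 ± 0.20. RELB, an NF-kB subunit, rose by 1.24 ± 0.18 and the GTPase gene GBP6 by 1.48 ± 0.36. TNFAIP2 differed from the rest in its timing, at 0.15 and -0.08 from the start at 18 h and 1.05 and 1.20 after return, a step of 1.09 (adjusted p = 0.011). The list had 9 of 27 tested genes called higher and none lower, with a median of 0.64, and included NFKB1, NFKB2, the NF-kB cofactor BCL3 (0.92 ± 0.22) and CSF1. Without BLT2 0h the count was 1, without Mock 0h 4, without Mock S18D2 6 and without BLT2 S18D2 4. Among these 11 called genes, 2 stayed called without BLT2 0h, 5 without Mock 0h, 7 without Mock S18D2, 6 without BLT2 S18D2 and at least 10 without any 1 of the other arrays (limma adjusted p up to 0.205).

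A pair of MHC class II genes belonged to the 118. DLA-DQA1, the alpha chain of a molecule that shows peptides to T cells, read 9.42 in Mock and 8.35 in BLT2 at 0h and 11.33 and 11.03 after return, a rise of 2.29 ± 0.30 (adjusted p = 0.00623). DLA-DMA, part of the DM complex that loads those peptides, went from 7.99 and 7.42 to 9.16 and 8.80 (1.28 ± 0.20, adjusted p = 0.0102). For both genes the lower return array was above the higher 0h array, which the 2-fold rule favours. DLA-DQA1 is polymorphic and has close relatives, so its probe set may not read 1 gene alone. Of the 2 called genes named here, 0 stayed called without BLT2 0h, 1 without Mock 0h, 2 without Mock S18D2, 2 without BLT2 S18D2 and all without any 1 of the other arrays (limma adjusted p up to 0.0829).

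Stress genes that serve amino acid supply remained higher. Of 43 tested genes of the ATF4 response, a programme started when amino acids run short or proteins misfold, 13 were called higher and none lower, with a median of 0.33. SLC6A9, which imports glycine, read 8.80 in Mock and 8.42 in BLT2 at 0h and 10.29 and 10.09 after return (1.58 ± 0.09, adjusted p = 0.000626). PSPH, the last enzyme of serine synthesis, rose by 1.10 ± 0.12 (adjusted p = 0.0054). The stress regulators SESN2, NUPR1 and DDIT4 rose by 1.20 ± 0.28, 1.09 ± 0.15 and 1.04 ± 0.13. PPP1R15A, which ends the translation block of this response, was near its start, at 7.35 and 7.12 before and 7.44 and 7.13 after return (0.05 ± 0.16, adjusted p = 0.857). It had been 2.66 and 2.98 above 0h at 18 h, and its step on return was -2.77 (adjusted p = 0.00141). SESN2 had been 2.50 and 2.55 above 0h at 18 h and moved by -1.32 on return, which missed the threshold (adjusted p = 0.0508). In the list of the unfolded protein response 3 of 28 genes were called higher and none lower. That is 10.7%, near the 7.75% of all tested genes called higher. The genes were EDEM1 and SEL1L of protein disposal from the endoplasmic reticulum and the factor XBP1, at 0.40 to 0.61. The count of 13 was 1 without BLT2 0h, 8 without Mock 0h, 11 without Mock S18D2 and 7 without BLT2 S18D2, and the count of 3 was 0 without BLT2 0h, Mock 0h or Mock S18D2 and 1 without BLT2 S18D2. Among these 8 called genes, 1 stayed called without BLT2 0h, 4 without Mock 0h, 4 without Mock S18D2, 5 without BLT2 S18D2 and at least 7 without any 1 of the other arrays (limma adjusted p up to 0.169).

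Genes of autophagy and the lysosome were higher by smaller amounts. Of 34 tested genes 12 were called higher and none lower, with a median of 0.32. WIPI1, which binds the membrane of the forming autophagosome, was the member that was 2-fold higher in each line, from 8.06 in Mock and 8.54 in BLT2 to 10.23 and 10.16 (1.90 ± 0.17, adjusted p = 0.00293). The receptor gene SQSTM1 rose by 0.86 ± 0.10, the lysosomal enzyme genes HEXA and CTSB by 0.76 ± 0.10 and 0.62 ± 0.10, and GABARAPL2, which is attached to autophagosome membranes, by 0.70 ± 0.13. WIPI1 had been 2.14 and 1.95 above the start at 18 h and had a step of -0.15 on return (adjusted p = 0.668). Without BLT2 0h 1 gene of the list was called, and 4, 4 and 5 without Mock 0h, Mock S18D2 and BLT2 S18D2. Of the 5 called genes named here, 1 stayed called without BLT2 0h, 3 without Mock 0h, 4 without Mock S18D2, 4 without BLT2 S18D2 and all without any 1 of the other arrays (limma adjusted p up to 0.106).

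Metal, chaperone and xenobiotic genes included some of the largest single changes. MT1E, a metallothionein that binds zinc and copper, had the largest rise of all tested genes, from 6.87 in Mock and 6.97 in BLT2 to 10.48 and 9.28 (2.96 ± 0.42, adjusted p = 0.00784), or 7.76-fold. That size rests on a start below the table median. MT2A, another metallothionein, was at 11.29 and 11.23 at 0h and 11.87 and 11.08 after return and was not called (0.21 ± 0.21, adjusted p = 0.545). Metallothioneins are alike in sequence, so their probe sets may not be fully separate. Besides MT1E, the zinc transporter SLC30A7 was called in the list of 11 tested metallothioneins and zinc transporters (0.74 ± 0.09). CYP1A1, an enzyme that oxidises foreign aromatic compounds, read 7.03 and 5.68 at 0h and 9.89 and 7.08 after return (2.13 ± 0.45, adjusted p = 0.0219). Both 0h arrays and the BLT2 return array were below the table median. The change in BLT2 thus lay wholly in the low range of signal. In a fit with no line term CYP1A1 was not called (limma adjusted p = 0.495). The Mock arrays were above the BLT2 array of the same step. TIPARP, another target of the aryl hydrocarbon receptor, was lower than the start at 18 h, by 0.67 and 0.29, and higher after return (0.77 ± 0.13, step on return 1.25, adjusted p = 0.011). HMOX1, the haem-degrading enzyme, showed the same order, at -0.12 and -0.20 at 18 h and 1.03 ± 0.13 in the fit after return (step 1.19, adjusted p = 0.011). Of 24 chaperone genes 4 were higher and 6 lower, the higher ones led by the small heat shock proteins HSPB1 (1.68 ± 0.21) and HSPB8 (1.03 ± 0.18) and the lower ones by HSPH1 (-0.83 ± 0.18) and CCT2 of the cytosolic folding chamber (-0.62 ± 0.13). ZFAND2A, induced by arsenite and proteasome stress, rose by 1.81 ± 0.26, SQOR, which oxidises sulphide, by 1.20 ± 0.15, and CIRBP, a cold-induced RNA-binding protein, by 1.12 ± 0.10. Among 24 targets of the antioxidant factor NRF2 3 were called higher and 1 lower, the peroxiredoxin gene PRDX1. That is 12.5% higher and 4.17% lower, near the 7.75% and 7.29% of all tested genes. Without BLT2 0h both chaperone counts and both NRF2 counts were 0, without Mock 0h they were 1 and 1 for the chaperones and 2 and 0 for NRF2, without Mock S18D2 2 and 0, and 5 and 0, and without BLT2 S18D2 2 and 1, and 1 and 1. Among these 13 called genes, 2 stayed called without BLT2 0h, 6 without Mock 0h, 8 without Mock S18D2, 10 without BLT2 S18D2 and all without any 1 of the other arrays (limma adjusted p up to 0.165).

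Of the junctions, which the calcium switch takes apart, desmosomes and adherens junctions had more calls than tight junctions. Of 25 tested tight junction genes 1 was called higher and 1 lower, with a median of 0.06. That is 4% each way, below the 7.75% of all tested genes called higher and the 7.29% called lower. TJP1, the scaffold ZO-1, was higher by 0.46 ± 0.10 (adjusted p = 0.0224), from 11.76 in Mock and 11.71 in BLT2 to 12.31 and 12.09. CLDN16, a claudin that lets magnesium and calcium pass between cells of the kidney tubule, read 11.59 and 10.12 at 0h and 10.46 and 8.29 after return (-1.48 ± 0.27, adjusted p = 0.0153). Its Mock return array lay above its BLT2 0h array, so the steps overlapped between the lines although each line fell. The membrane proteins CLDN1 and OCLN were near the start, at 0.10 ± 0.15 (adjusted p = 0.671) and 0.02 ± 0.14 (adjusted p = 0.946). CLDN4 had 0.82 ± 0.23 (adjusted p = 0.0526) and passed the threshold in 4 of 10 fits that left out 1 array and under 7 of 12 other settings (limma adjusted p up to 0.331). CLDN2, which forms a channel for sodium, was at 9.92 in Mock and 6.77 in BLT2 at 0h and at 7.47 and 6.95 after return, so Mock fell by 2.45 while BLT2 was at 0.18, and the fitted change of -1.13 ± 0.56 was not called (adjusted p = 0.21). Among adherens junctions and desmosomes 7 of 23 genes were called higher and 1 lower, PKP4, with a median of 0.24. They were DSC3, a desmosomal cadherin (0.90 ± 0.11, adjusted p = 0.00569), P-cadherin CDH3 (0.82 ± 0.17), NECTIN2 (0.71 ± 0.13), NECTIN1 (0.62 ± 0.13), JUP, or plakoglobin (0.62 ± 0.11), E-cadherin CDH1 (0.60 ± 0.10) and PERP. CDH1 read 12.22 and 12.26 at 0h and 12.81 and 12.86 after return (adjusted p = 0.0102), and had been 0.62 and 0.45 above the start at 18 h. In the list of apical-basal polarity PARD3B was called higher among 18 genes (0.88 ± 0.10, adjusted p = 0.00571), and none was lower. Its share of 5.56% was also below that of all tested genes called higher. The count of 7 was 0 without BLT2 0h, 1 without Mock 0h, 3 without Mock S18D2 and 2 without BLT2 S18D2, and both tight junction calls were lost without BLT2 0h, Mock 0h or BLT2 S18D2, and that of TJP1 without Mock S18D2. Of the 11 called genes named here, 0 stayed called without BLT2 0h, 2 without Mock 0h, 5 without Mock S18D2, 4 without BLT2 S18D2 and at least 10 without any 1 of the other arrays (limma adjusted p up to 0.276).

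Several genes that act on the matrix under the cells were higher. A class of proteolysis, matrix and adhesion was sorted from the 118 genes after their values were seen. Of its 8 members 7 rose, where 57 of all 118 genes were higher. PLAT and PLAU, the tissue-type and urokinase-type activators of plasminogen, were both among them. PLAT read 7.16 in Mock and 7.62 in BLT2 at 0h and 9.36 and 9.79 after return (2.19 ± 0.13, adjusted p = 0.000626). PLAU read 10.08 and 11.02 at 0h and 11.63 and 12.10 after return (1.31 ± 0.18, adjusted p = 0.00748). LAMB3, a chain of the laminin in the basement membrane of epithelia, rose from 9.76 and 9.62 to 11.43 and 11.21 (1.63 ± 0.13, adjusted p = 0.00187). SSPN, a member of the dystrophin complex, rose by 2.39 ± 0.28, the collagen receptor DDR2 by 1.63 ± 0.24, SEMA7A, a membrane-bound semaphorin, by 1.51 ± 0.18 and the protease inhibitor TIMP2 by 1.13 ± 0.11. SEMA7A moved on return, with 0.24 and -0.14 at 18 h and a step of 1.46 (adjusted p = 0.0132), while the step of PLAT was 0.18 (adjusted p = 0.473). FLRT3, an adhesion protein, was the member that fell, by 1.68 ± 0.25. Of 30 tested integrins, laminins and matrix receptors 7 were called higher and none lower, with a median of 0.28, among them DDR1, the integrin chains ITGAV and ITGA3 and the syndecan SDC4, at 0.67 to 0.85. Of 24 genes for matrix proteins, proteases and inhibitors 5 were higher, including LOXL2, which cross-links collagen (0.99 ± 0.18), and FN1, fibronectin, was lower (-0.71 ± 0.13). Regulators of the epithelial mesenchymal transition were split, with 5 of 15 higher, led by SNAI2 (1.39 ± 0.15), SNAI1 (1.34 ± 0.36) and the epithelial factor GRHL3 (1.15 ± 0.29), and 2 lower, GRHL1 (-0.72 ± 0.12) and FN1. The integrin count was 1 without BLT2 0h, 2 without Mock 0h, 5 without Mock S18D2 and 5 without BLT2 S18D2, the protease count 1, 2, 5 and 3 and the count of higher transition regulators 0, 1, 1 and 2 in the same order, the last also 2 without either array of 18 h. Among these 18 called genes, 4 stayed called without BLT2 0h, 10 without Mock 0h, 13 without Mock S18D2, 15 without BLT2 S18D2 and at least 17 without any 1 of the other arrays (limma adjusted p up to 0.221).

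Growth and mechanical response genes were partly above and partly below the start. CCN1, a matrix protein and target of the Hippo pathway factor YAP, read 11.54 in Mock and 11.56 in BLT2 at 0h, 12.26 and 12.27 at 18 h and 10.23 and 10.40 after return. Its change from 0h was -1.24 ± 0.09 (adjusted p = 0.00171) and its step on return -1.95 (adjusted p = 0.000621). ANKRD1, another target of YAP, fell by 1.95 ± 0.46 (adjusted p = 0.0321), from 8.98 and 9.94 to 6.91 and 8.11. Of the other targets in this list of 23 genes 5 were higher, NUAK2 (1.24 ± 0.20), CRIM1 (0.68 ± 0.12), TGFB2 (0.50 ± 0.09), MYOF and TEAD1, the last a partner of YAP itself. EDN1, the vasoconstrictor endothelin, was also in the lowered class of secreted factors (-1.68 ± 0.41, adjusted p = 0.0359), as was FGFBP1, which releases growth factors from the matrix (-1.76 ± 0.35). Of 30 immediate early genes 6 were higher and 1 lower, with a median of 0.13. FOSL1, a partner of JUN in AP-1, rose by 1.28 ± 0.27 and JUNB by 0.85 ± 0.11, and IER3, BTG2, ZFP36 and JUN rose too. In the list of ERK feedback and EGF receptor ligands 4 of 26 were higher, EGFR (0.92 ± 0.21), DUSP1 (0.85 ± 0.16), DUSP7 (0.58 ± 0.11) and the cytokine LIF (0.48 ± 0.13). LIF was called in 0 of 10 fits that left out 1 array, and the list had at most 3 calls in them. DUSP1, a phosphatase of MAP kinases, had been 1.80 and 2.26 above 0h at 18 h and came down by 1.19 on return (adjusted p = 0.0152). Without BLT2 0h no gene of the 3 lists was called higher, and the counts of higher genes in the immediate early, ERK and YAP lists were 2, 0 and 0 without Mock 0h, 4, 2 and 1 without Mock S18D2 and 6, 2 and 2 without BLT2 S18D2. Of the 19 called genes named here, 1 stayed called without BLT2 0h, 3 without Mock 0h, 8 without Mock S18D2, 11 without BLT2 S18D2 and at least 16 without any 1 of the other arrays (limma adjusted p up to 0.287).

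Some of the largest changes belonged to genes of other roles. GAPT, an adaptor protein known from B cells, read 7.20 in Mock and 6.90 in BLT2 at 0h and 10.42 and 9.20 after return (2.76 ± 0.39, adjusted p = 0.00767). CHN1, which switches off the GTPase RAC, read 7.42 and 7.90 at 0h and 10.25 and 10.27 after return (2.60 ± 0.15, adjusted p = 0.000626). STYXL1, a phosphatase-like protein without activity, rose by 1.89 in Mock and 2.46 in BLT2, from 6.11 and 5.78 (2.18 ± 0.22). GAPT and STYXL1 were below the table median on both 0h arrays and passed the filter through later arrays. PRKAR2B, a regulatory subunit of protein kinase A, fell by 1.93 ± 0.26 (adjusted p = 0.00646) and the imprinted gene MEST by 1.83 ± 0.15 (adjusted p = 0.00249). GEM, a small GTPase that inhibits calcium channels, and S100A2, a calcium-binding protein, rose by 1.59 ± 0.23 and 1.58 ± 0.20. Both moved on return, with steps of 1.54 (adjusted p = 0.019) and 1.11 (adjusted p = 0.0315). ARRDC4, an arrestin that lowers glucose uptake, was still 1.18 ± 0.16 above the start but had come down by 1.22 from 18 h (adjusted p = 0.0147). AGAP1, a regulator of ARF GTPases, rose by 1.21 ± 0.13. Among these 9 called genes, 2 stayed called without BLT2 0h, 9 without Mock 0h, 9 without Mock S18D2, 9 without BLT2 S18D2 and all without any 1 of the other arrays (limma adjusted p up to 0.0813).

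The remaining members fell into small classes. Among the regulators of transcription KAT2B, a histone acetyltransferase, rose by 1.94 ± 0.13 (adjusted p = 0.00123), EPAS1, the hypoxia factor HIF-2 alpha, by 1.42 ± 0.12 and NR3C1, the glucocorticoid receptor, by 1.15 ± 0.14, and MYB, a factor of proliferating cells, fell by 1.41 ± 0.17. A class of 4 members that build sugar chains was picked out after their values were seen. It held MGAT3 and MGAT4C, which add sugars to N-glycans, ST6GALNAC2, which adds sialic acid, and CHST15, which sulphates chondroitin. They rose by 1.10 to 1.28. Transport genes were split. ABCA8, a lipid transporter, and TMEM63C, a membrane channel, rose by 1.66 ± 0.19 and 1.43 ± 0.14. ABCA8 was below the table median of 7.21 on both 0h arrays and on the BLT2 return array. Its change in BLT2 thus lay wholly in the low range of signal. The glutamate transporter SLC1A1 fell by 1.48 ± 0.23. Apart from the transporters, the kidney injury marker HAVCR1 fell by 1.41 ± 0.26. HAVCR1 read 10.40 in Mock and 11.17 in BLT2 at 0h and 9.37 in both after return. Of the metabolic enzymes AADAT, a kynurenine aminotransferase, and DHRS3, which reduces retinal, rose by 1.59 ± 0.23 and 1.45 ± 0.13, while GCAT of threonine breakdown, GSTCD, the spermidine synthase SRM and HPRT1 of purine salvage fell by 1.10 to 1.30. Lowered genes of RNA binding and the ribosome were the splicing factor SRSF7 (-1.73 ± 0.22), RPL22L1, RBM44 and RPS29. Others that rose were MAP1B of microtubules (1.59 ± 0.17), AHNAK2, PARP15, ESYT3, TMEM205, DNAH10 and LOC478670, at 1.12 to 1.54 for the last 6. TMEM138 and INTU, both needed for cilia, EMC9 of the endoplasmic reticulum, FAM185A and LOC476070 fell by 1.09 to 1.39. KAT2B, AADAT, DHRS3, ST6GALNAC2 and PARP15 were below the table median on both 0h arrays, and FAM185A and INTU on both return arrays. Of the 34 called genes named here, 11 stayed called without BLT2 0h, 24 without Mock 0h, 26 without Mock S18D2, 29 without BLT2 S18D2 and at least 32 without any 1 of the other arrays (limma adjusted p up to 0.237).

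**Figure D3:**
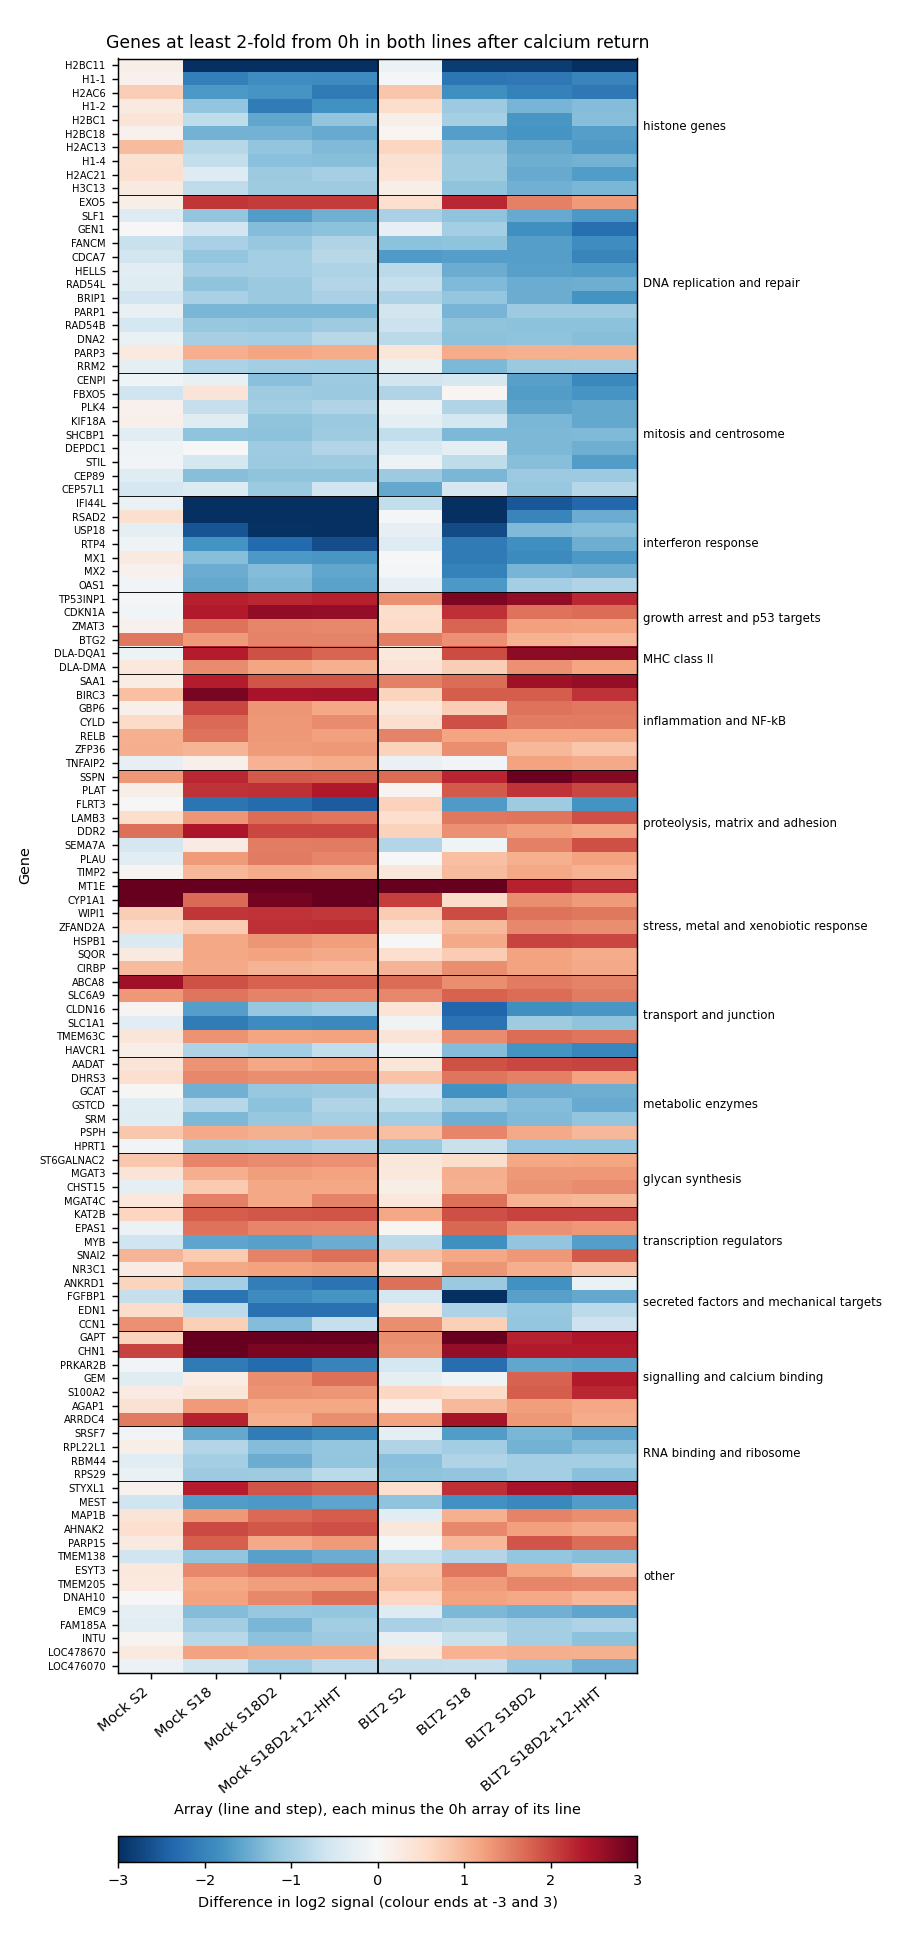
Difference in log2 signal from the 0h array of the same line (colour, red higher and blue lower, ending at 3 units) for the 118 genes (rows, by class) on the other 8 arrays (columns). FBXO5, DEPDC1, TNFAIP2, SEMA7A and GEM are near 0 at 18 h and CCN1 changes from above to below.

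Set side by side, the 57 higher genes had a median difference from 0h of 0.36 in Mock and 0.51 in BLT2 after 2 h in SMEM, 1.44 and 1.40 after 18 h and 1.46 and 1.47 after return. The 61 lower genes had medians of -0.10 and -0.39, then -1.15 and -1.23, then -1.25 and -1.43. These differences share the 0h arrays and the genes were chosen on the return arrays, so the medians describe the arrays and no test was made of them. On return with 200 nM 12-HHT the medians were 1.46 and 1.40 for the higher genes and -1.17 and -1.47 for the lower ones. The size of the difference between the return arrays with and without 12-HHT had a median of 0.088 in Mock and 0.120 in BLT2 over the 118 genes, against 0.074 and 0.071 over all tested genes, from 1 array against 1. ANKRD1 in BLT2 was an exception to the small differences, at 9.74 with 12-HHT and 8.11 without it, against 6.78 and 6.91 in Mock.

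Of 19 genes of cholesterol synthesis and uptake 2 were lower (10.5%, against 7.29% of all tested genes), STARD4 (-0.54 ± 0.14, adjusted p = 0.0446) and MVD (-0.44 ± 0.12, adjusted p = 0.0498), with a median of -0.44 that was -0.77 in Mock and -0.23 in BLT2. HMGCS1, an early enzyme of that route, read 11.31 and 11.50 at 0h and 10.35 and 11.50 after return and was not called (-0.48 ± 0.34, adjusted p = 0.374). Among 15 genes of fatty acid synthesis FADS1, a desaturase, rose by 1.46 ± 0.26 (adjusted p = 0.0142), and 2 fell (13.3%), ELOVL6 and ACLY, by 0.95 ± 0.21 and 0.79 ± 0.17. The cholesterol list had at most 1 call in any fit that left out 1 array, and the lowered fatty acid genes were lost without BLT2 0h, Mock 0h or Mock S18D2. Among these 5 called genes, 0 stayed called without BLT2 0h, 1 without Mock 0h, 1 without Mock S18D2, 2 without BLT2 S18D2 and at least 3 without any 1 of the other arrays (limma adjusted p up to 0.31).

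The other lists are set against 7.75% of all tested genes called higher and 7.29% lower. Energy metabolism had 1 higher and 1 lower of 33 genes of glycolysis and hypoxia, and 2 higher and 1 lower of 28 genes of oxidative phosphorylation. Ribosome biogenesis had 5 of 36 lower (13.9%), led by the nucleolar protein NCL (-0.65 ± 0.13), and the proteasome 2 of 30 lower. Calcium handling had 6 of 33 higher (18.2%), among them the store-operated channel ORAI3 (0.59 ± 0.13), and 2 lower, the magnesium channel TRPM6 (-1.10 ± 0.16) and RCAN1, an inhibitor of calcineurin (-0.87 ± 0.18). RCAN1 had been 0.47 and 0.39 above the start at 18 h and came down by 1.31 on return (adjusted p = 0.0154). In the eicosanoid list 3 of 17 were higher (17.6%), including the prostaglandin receptor PTGER2 (0.61 ± 0.11), and PLA2G4A, which frees arachidonic acid, was lower (-0.81 ± 0.17). In the list of kidney tubule identity and transport 2 of 28 were higher, CA12, a carbonic anhydrase (0.63 ± 0.13), and the sodium channel subunit SCNN1A, and 2 were lower, SLC5A3 and AKR1B1 of osmolyte supply. The TGF-beta and BMP list had 4 higher (14.3%) and 2 lower of 28, with BMP4 at -0.99 ± 0.25, the actin list 4 (14.8%) and 1 of 27, the keratin list 1 and 0 of 14 and the clock list 1 and 1 of 12. All of these counts were 0 without BLT2 0h, and 0 to 4 without Mock 0h, Mock S18D2 or BLT2 S18D2. Of the 11 called genes named here, 0 stayed called without BLT2 0h, 4 without Mock 0h, 1 without Mock S18D2, 5 without BLT2 S18D2 and at least 9 without any 1 of the other arrays (limma adjusted p up to 0.196).

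**Figure D4:**
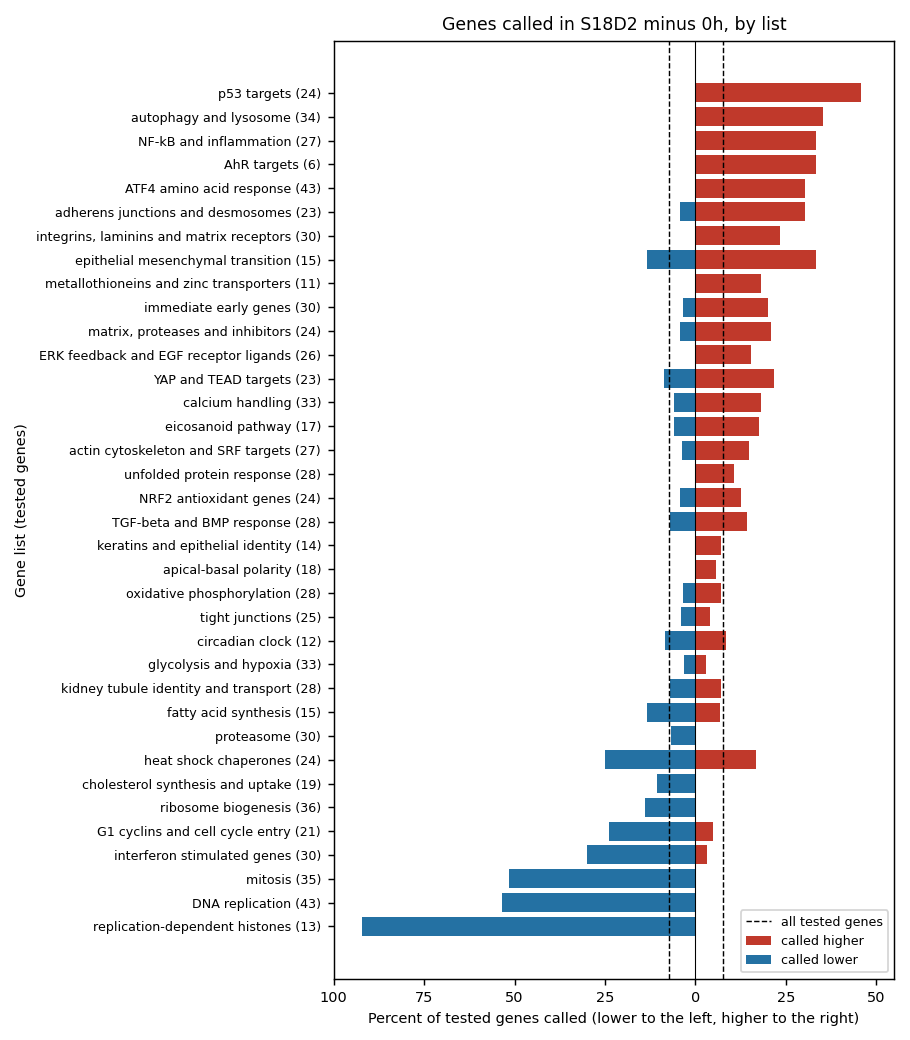
Percent of the tested genes of each list called higher (red, to the right) or lower (blue, to the left) in S18D2 minus 0h, with the number tested in brackets and dashed lines at 7.75% and 7.29% for all tested genes. Histones, DNA replication, mitosis and interferon genes reach farthest to the left, and p53 targets and autophagy and lysosome farthest to the right, followed at 33.3% by NF-kB, AhR targets and the epithelial mesenchymal transition.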

How the data were processed

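RNA of MDCK cells was hybridised to 10 Affymetrix Canine Gene 1.0 ST arrays, 1 for each line and step, each with RNA of 3 preparations mixed. The deposited table holds log2 signals for 32391 probe sets, made by the authors, per the submitters' processing notes, with the software Affymetrix Expression Console and with GCRMA, which corrects background and summarises probes. No version is given in the sources used here. The normalized scale of the deposited log2 values was kept, and no table column was without a sample. The platform annotation gave 16545 probe sets 1 gene symbol, 370 several and 15476 none, and the first of these were used. They make up 15947 genes, and for 516 genes with several probe sets the one with the highest mean was taken.

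Genes above the table median, 7.21, on at least 2 arrays were tested, 10498 in all. An additive model of line and step was fitted over the 10 arrays with limma 3.58.1 in R 4.3.3 (lmFit and eBayes, 4 residual and 3.46 prior degrees of freedom), and p-values were adjusted over all tested genes by the method of Benjamini and Hochberg. All p-values are two-sided and come from limma. The residual is what the additive model leaves between the lines, so p-values measure the spread between these arrays and not between separate cultures, and the number of arrays limits the precision. The procedure was tested on simulated data. The members and gene lists were chosen with earlier results of these data known. The 39 lists had 1219 members, repeats counted, of which 1063 were on the array and 905 were tested, and the same gene can stand in several lists.

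Named genes were the 12 with the largest change at each end, up to 5 called genes of a list by size, a short set of junction, metal and stress genes whatever their value, and 4 genes that moved in opposite directions in the lines. All 118 genes that were 2-fold displaced in each line are named too. CCNE1, PMAIP1, BAX, MDM2, ISG20, NFKB1, NFKB2, CSF1, PERP, PKP4, MYOF, TEAD1, JUN and EGF were named beyond the rule after their values were seen, and the classes of the 118 genes were sorted after seeing them. One item of the rule is not reported here. Alternatives were the filter on signal, scaling of arrays, the rule for probe sets, an intensity trend in eBayes, the arrays and terms of the fit, and each array left out in turn. No sequence was used here.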

Additional observations from a re-analysis of the deposited data

Results flagged for a closer look

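After calcium return 5 genes were at least 2-fold from their start in opposite directions in the lines, with 1 array a line and step, and the differences were not tested. Each is given as the change in BLT2 minus that in Mock, in log2 units. SELENOP, a plasma selenium carrier, had a difference of 3.58, from 9.18 to 6.71 in Mock and from 5.91 to 7.03 in BLT2. The lines met near 7 after starting far apart. MMP13, a collagenase, had 3.48, from 9.05 to 7.67 in Mock and from 9.80 to 11.90 in BLT2. On return with 12-HHT it read 7.65 and 12.71. PTGS2, the inducible cyclooxygenase, had 2.22, from 10.93 to 9.86 in Mock and from 10.13 to 11.28 in BLT2, and with 12-HHT it read 9.82 and 12.30. MMP13 and PTGS2 were thus higher in BLT2 with 12-HHT than without it. EGF, the epidermal growth factor, had 2.48, from 9.41 to 7.99 in Mock and from 6.82 to 7.88 in BLT2. Its BLT2 0h reading was also below the table median. RBP4, which carries retinol, had 2.23, from 11.02 to 9.88 in Mock and from 10.00 to 11.09 in BLT2.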

How the results depend on the processing

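The count of called genes turned on the arrays in the fit. With only the 4 arrays of 0h and S18D2 it was 643, 295 higher and 348 lower, with the 12-HHT arrays counted as return 3011 (1544 and 1467), and with no line term 415 (227 and 188), where the genes lower by 2-fold in each line numbered 38 against 61. Leaving out 1 array at a time gave 40 to 1848 called genes, 24 to 880 of them higher and 16 to 968 lower. The lowest counts came without BLT2 0h and the highest without an array of S2, the 2 h in SMEM. The count at 2-fold ran from 39 to 245, higher 24 to 130 and lower 15 to 159. Without an array of 0h or S18D2 the 2-fold condition rested on the other line, and the lone array was assumed to vary like the rest. The other settings, of filter, scaling, probe sets, trend and without the 12-HHT arrays, gave 1137 to 1771 called genes, with 544 higher and 600 lower after median centring. Of the 118 genes 83 lost their call without BLT2 0h, 32 without Mock 0h, 23 without Mock S18D2 and 13 without BLT2 S18D2 (limma adjusted p up to 0.237), and 79 were called under all settings, other than leaving out 1 array, that tested them. None of the 233 called genes named changed direction under a setting. Scaling moved the median change over all genes by less than 0.1. The line term sets S18D2 against 0h within each line, and the labels give no replicate numbers for a further block. With 1 array for each line and step, a difference between the lines has no replicate error, and genes above the table median on fewer than 2 arrays were not tested.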
